A study of Mus musculus with 6 samples.

Results

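The Sprouty genes Spry1, Spry2, Spry3 and Spry4 and the Spred genes Spred1, Spred2 and Spred3 were followed in mouse B cell precursors with and without the ERK phosphatase Dusp6. All 7 genes of the family were measured, out of 19938 genes on the array, and 8 probe sets carried their symbols alone. Each gene was read from its probe set with the highest mean over the 6 arrays. The cells were labelled as pre-B cells transformed by BCR-ABL1, the oncogenic kinase made by the Philadelphia chromosome in acute leukaemia, on a C57Bl/6-SV129j background. The 3 Dusp6 KO arrays held total RNA of such cells from Dusp6 knockout mice, and the 3 Dusp6 WT arrays total RNA of such cells from wild-type mice. BCR-ABL1 was thus present in both genotypes. The labels do not say how it was introduced, which part of Dusp6 was deleted, or whether replicates of 1 genotype are separate cultures or mice. The p-values therefore set each difference only against the scatter of these samples, and that scatter may be technical.

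Sprouty and Spred proteins are intracellular inhibitors of signalling from receptor tyrosine kinases through RAS to ERK. Both share a cysteine-rich C-terminal domain named after Sprouty. The Spreds also carry an N-terminal EVH1 domain, through which they bring the RAS GTPase-activating protein neurofibromin to the membrane. Several of these genes are themselves induced by ERK activity, so that they close a negative feedback loop, as Dusp6 does by removing the activating phosphates from ERK. The comparison of genotypes asks how the transcripts of these parallel inhibitors stand in transformed cells that lack Dusp6.

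Signals are on the log2 scale, so a difference of 1 is a doubling. Dusp6 itself had a log2 signal of 9.08 ± 0.058 in Dusp6 KO and 12.44 ± 0.072 in Dusp6 WT (SD, n = 3 each), and each array went with its label. Over all probe sets, arrays of the same genotype correlated at 0.996 to 0.998 and arrays of different genotypes at 0.987 to 0.989. B cell precursor markers were present, with 17 of 18 listed genes measured, none below the lower quartile on all arrays, and 4 higher and 6 lower in Dusp6 KO (limma adjusted p under 0.05; 58.8%, beside 19.8% of all genes). The largest of these differences on the log2 scale were −1.42 for Dntt, which encodes terminal transferase, 1.33 for Cd22 and 1.26 for Cd72, both inhibitory co-receptors of the B cell receptor. The summed linear signal of the list was 132080 to 134102 in Dusp6 KO and 139513 to 140292 in Dusp6 WT. Of 15 myeloid markers 2 passed, Fcgr3 and Lyz2, both higher, and the summed linear signal of the list was 4817 to 4971 in Dusp6 KO and 3960 to 4054 in Dusp6 WT. In 12 stromal and endothelial markers, of which only Pecam1 passed, as higher, the sums were 5395 to 5541 in Dusp6 KO and 4661 to 4774 in Dusp6 WT. On the log2 scale Fcgr3 rose by 1.72, Lyz2 by 0.70 and Pecam1 by 0.51. Neither list shifted as a whole: differences were above 0 in 8 of the 15 myeloid markers (median 0.0091) and 7 of the 12 stromal and endothelial ones (median 0.0073). The sums of 10 T and NK cell markers were 1890 to 1967 in Dusp6 KO and 1835 to 1919 in Dusp6 WT, and those of 7 erythroid and megakaryocyte markers 1719 to 1791 in Dusp6 KO and 1709 to 1826 in Dusp6 WT, so that both overlapped. Among them Cd8b1 and Car1 passed as higher and Zap70 as lower. RMA gives every probe set a value, and no marker was listed at 0. The part of these markers in the results below was not tested. In such bulk RNA, fewer cells of a type and less RNA per cell cannot be told apart.

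Spry4 and Spry2 were lower in cells without Dusp6, while no difference of Spry1 or Spry3 passed the test. Spry4 encodes a Sprouty that restrains RAS and RAF activation. Its log2 signals were 8.48, 8.42 and 8.42 in Dusp6 KO and 8.86, 8.81 and 8.82 in Dusp6 WT. All 3 Dusp6 KO values lay below all Dusp6 WT values, with a gap several times the spread inside either genotype. The Spry4 difference was −0.39 ± 0.042 (SE; limma adjusted p = 0.00015), which puts the Dusp6 KO signal at 76.4% of the Dusp6 WT signal.

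Spry2 encodes the family member that, once phosphorylated on a tyrosine, binds the ubiquitin ligase CBL and the adaptor GRB2. Its log2 signals were 9.32, 9.27 and 9.37 in Dusp6 KO, against 9.59, 9.66 and 9.60 in Dusp6 WT. Here too the genotypes did not overlap. Spry2 fell by 0.30 ± 0.045 on the log2 scale (SE; limma adjusted p = 0.0012), to 81.2% of the Dusp6 WT signal. The 95% intervals of the Spry4 and Spry2 differences were −0.48 to −0.29 and −0.40 to −0.20 and overlapped each other.

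Spry1, a Sprouty that growth factors induce, did not separate the genotypes. It had 10.93, 10.93 and 10.88 in Dusp6 KO and 10.90, 10.95 and 10.88 in Dusp6 WT, so that the values of the genotypes interleaved. Its log2 difference was 0.0039 with a 95% interval of −0.091 to 0.099 (limma adjusted p = 0.97), which does not contain the differences seen in Spry2 and Spry4. Spry3, the least studied Sprouty, had 7.07, 6.94 and 6.90 in Dusp6 KO and 6.81, 6.80 and 6.92 in Dusp6 WT, with 1 Dusp6 WT value above the lowest Dusp6 KO value. The Spry3 difference of 0.12 had an interval of −0.0048 to 0.25 (limma adjusted p = 0.18). On every array the Spry3 signal was under that array's lower quartile (7.12 to 7.16 over the arrays), and detection above background was not tested.

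**Figure D1:**
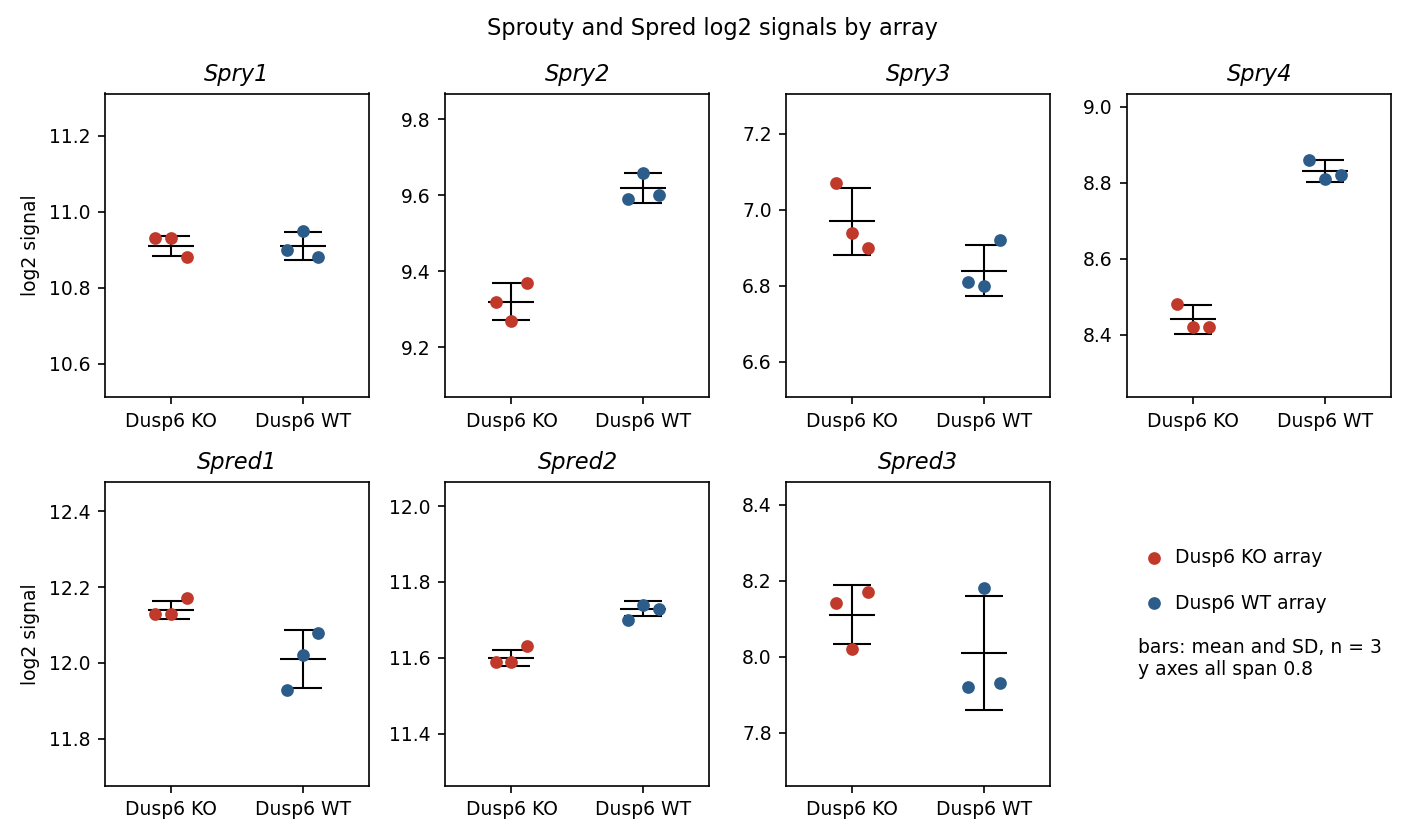
Log2 signal of each Sprouty and Spred gene (y axis; every panel spans the same 0.8 units) on the 3 Dusp6 KO arrays (red, left) and the 3 Dusp6 WT arrays (blue, right); black bars are means with SD. Spry2 and Spry4 show separated groups, Spry1 shows interleaved ones, and Spred1 and Spred2 are separated by a narrow gap in opposite directions.

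None of the 3 Spred genes passed the test. Spred1, whose human counterpart is mutated in Legius syndrome, had 12.13, 12.13 and 12.17 in Dusp6 KO and 11.93, 12.02 and 12.08 in Dusp6 WT. The Dusp6 KO values were all above the Dusp6 WT values, by a margin smaller than the spread of the Dusp6 WT arrays. The Spred1 difference was 0.13 ± 0.049 (SE; 95% interval 0.023 to 0.24; limma adjusted p = 0.092).

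Spred2, the Spred studied most in blood cells, had the opposite sign. Its signals were 11.59, 11.59 and 11.63 in Dusp6 KO and 11.70, 11.74 and 11.73 in Dusp6 WT, again without overlap, and its difference was −0.12 ± 0.040 (SE; 95% interval −0.21 to −0.030; limma adjusted p = 0.066). The other Spred2 probe set read 10.44, 10.21 and 10.50 in Dusp6 KO and 10.46, 10.48 and 10.43 in Dusp6 WT. That probe set did not separate the genotypes, since of its Dusp6 KO values 1 lay below, 1 among and 1 above the Dusp6 WT values (difference −0.068; adjusted p = 0.66 in a limma fit of every probe set).

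Spred3, which lacks a functional KIT-binding domain, had 8.14, 8.02 and 8.17 in Dusp6 KO and 7.92, 8.18 and 7.93 in Dusp6 WT. Its values overlapped through 1 high Dusp6 WT array, and the difference of 0.10 had an interval of −0.069 to 0.27 (limma adjusted p = 0.43).

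Of the 7 genes, 2 passed limma's test at an adjusted p under 0.05, both lower in Dusp6 KO. Over all genes tested, 19.8% passed in either direction, 9.66% as higher and 10.2% as lower, so a count of 2 among 7 is close to what the array shows in general. At an unadjusted p under 0.05 the family had 1 higher gene (Spred1) and 3 lower ones (Spry2, Spry4 and Spred2). Many genes reached that threshold. By limma's unadjusted p, Spred1 (0.0227) ranked 4896 and Spry3 (0.0574) ranked 6367 among 19938 genes. The genotypes did not overlap in 4 of the 7, where 35.7% of all genes showed such a separation. Differences were above 0 in 4 of the genes and below 0 in 3, and the family's median log2 difference was 0.0039, beside 0.0018 for all genes. The Spry4 difference was larger than the median absolute difference of all genes that passed, which was 0.27, and the Spry2 difference was near it. With 3 arrays against 3, an exact two-sided permutation test cannot go below p = 0.10, and Spry2, Spry4, Spred1 and Spred2 all gave that value.

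**Figure D2:**
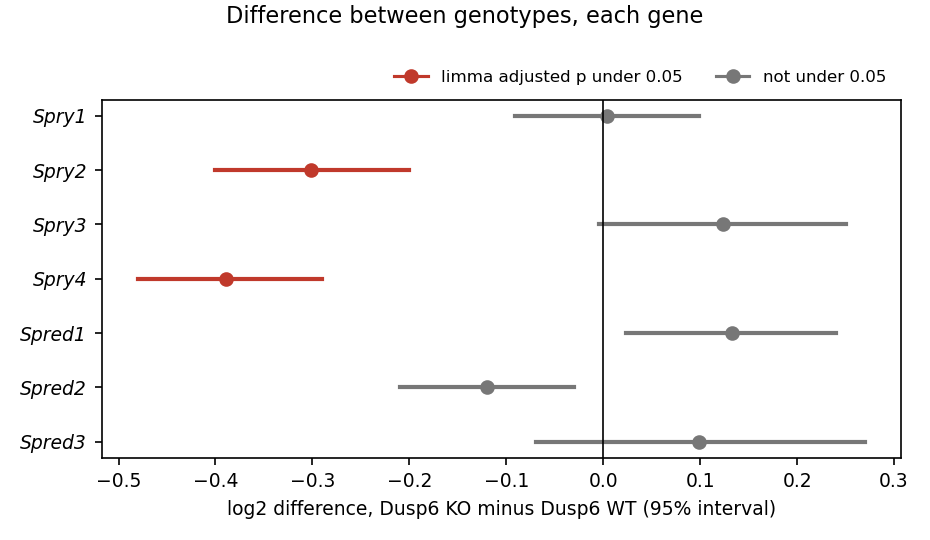
Log2 difference of each gene, Dusp6 KO minus Dusp6 WT (x axis), with its 95% interval from limma; red marks an adjusted p under 0.05. Spry2 and Spry4 lie wholly left of 0, Spry1 is centred on 0, and the intervals of Spred1 and Spred2 stop short of 0 on opposite sides without passing the adjusted test.

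Promoter sequences from RefSeq (GRCm38.p6, 250 bases before to 50 after the gene start) were found for 5 of the 7 genes, Spry1, Spry2, Spred1, Spred2 and Spred3. Those of Spry2, which fell, and Spry1, whose interval was centred near 0, are shown for contrast, 5′ to 3′ on the strand of the gene. Capitals mark GGAA, the core of sites for ETS factors, several of which are phosphorylated by ERK, or its reverse complement TTCC. The Spry2 window is chr14:105896770-105897069 on the minus strand and the Spry1 window chr3:37639697-37639996 on the plus strand.
Spry2: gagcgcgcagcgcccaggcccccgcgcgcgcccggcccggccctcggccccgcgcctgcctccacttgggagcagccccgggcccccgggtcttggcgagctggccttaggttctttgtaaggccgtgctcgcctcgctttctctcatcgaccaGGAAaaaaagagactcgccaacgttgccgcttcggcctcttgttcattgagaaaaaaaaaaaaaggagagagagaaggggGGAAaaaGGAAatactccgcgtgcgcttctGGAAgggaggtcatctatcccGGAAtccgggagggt
Spry1: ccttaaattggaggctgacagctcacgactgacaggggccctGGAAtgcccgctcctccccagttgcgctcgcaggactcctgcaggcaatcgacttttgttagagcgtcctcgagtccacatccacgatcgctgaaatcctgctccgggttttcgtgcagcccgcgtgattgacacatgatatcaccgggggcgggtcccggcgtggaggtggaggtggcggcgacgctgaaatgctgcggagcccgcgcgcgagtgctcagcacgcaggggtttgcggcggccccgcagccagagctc
GGAA occurred 5 times over both strands in the Spry2 window and 1 time in the Spry1 window. It is a frequent word: 96.0% of 32851 promoters of this length held it, and 28.6% held at least as many matches as Spry2. Spred2 held 7 matches, a number reached by 8.02% of promoters, Spred1 held 5 and Spred3 held 1. The GC box GGGCGG occurred 3 times in Spred1 and in Spred3, 1 time in Spry1 and Spred2, and not in the Spry2 window, where 35.7% of promoters held it. CCAAT was found in the windows of Spry1 and Spred2 (37.4% of promoters), and TGACG, the core of cyclic AMP response elements, in that of Spred2 alone among the 5 genes (20.8% of promoters). Both strands were searched, and matches of different words could share letters.

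Among 18709 other genes, those whose signals followed Spry4 most closely over the 6 arrays were Arid1b, Pld3 and Asf1b (Pearson r from 0.9988 to 0.9993), and those that followed Spry2 most closely were Kdm2b, Rnaseh1 and H1f5 (r from 0.9981 to 0.9993). The arrays fall into the genotypes, so such values mostly restate a difference between genotypes with little spread inside them. Rnaseh1, which removes RNA from RNA-DNA hybrids, had 9.48, 9.38 and 9.57 in Dusp6 KO and 9.89, 10.02 and 9.92 in Dusp6 WT, and like Spry2 its replicates ordered the same way inside each genotype. Rnaseh1 fell by 0.47 on the log2 scale and Pld3, a lysosomal nuclease gene, by 0.41. Asf1b, a histone chaperone gene of dividing cells, fell by 0.23 (limma adjusted p = 0.0027 or lower for the 3). Kdm2b and H1f5 fell by 0.16 each, but Kdm2b passed no longer without Dusp6 KO replicate 2 or any 1 Dusp6 WT array (adjusted p = 0.058 to 0.074), nor H1f5 without Dusp6 KO replicate 2 or Dusp6 WT replicate 1 or 2 (0.052 to 0.062). Arid1b, at −0.10, did not pass (adjusted p = 0.10).

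Transcripts of proteins known to bind or modify the Sproutys and Spreds changed in both directions. Of 29 measured genes of this list, 3 rose and 5 fell (27.6%, beside 19.8% of all genes), with a median log2 difference of 0.018. Cblb, a relative of the ubiquitin ligase CBL that docks on Spry2, had 11.91, 11.99 and 11.87 in Dusp6 KO and 12.29, 12.22 and 12.22 in Dusp6 WT. Cblb fell by 0.32 (limma adjusted p = 0.0011), an amount close to that of Spry2 itself. Cbl did not pass (difference 0.11, limma adjusted p = 0.14), nor did Grb2 (difference 0.018, limma adjusted p = 0.82). Plcg1, the phospholipase whose output Sprouty proteins restrain, fell by 0.28, and Ptpn1, a phosphatase of receptor tyrosine kinases, rose by 0.29. Lztr1, an adaptor for the degradation of RAS proteins, fell by 0.23, a call lost without Dusp6 KO replicate 2 or Dusp6 WT replicate 2 (adjusted p = 0.056 and 0.062). Nf1, the gene of neurofibromin, was looked up for its role with the Spreds. It had 10.16, 10.18 and 10.22 in Dusp6 KO and 10.26, 10.33 and 10.15 in Dusp6 WT, which overlapped (difference −0.059 ± 0.054, SE; limma adjusted p = 0.53).

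Other negative regulators of RAS and ERK changed in both directions, more of them upward. Of 29 measured genes 10 rose and 4 fell (48.3%, beside 19.8% of all genes), with a median log2 difference of 0.032. Dab2ip and Rasa2, both RAS GTPase-activating genes, rose by 0.38 and 0.33. Dusp7, a cytoplasmic ERK phosphatase closely related to Dusp6, had 13.27, 13.14 and 13.17 in Dusp6 KO and 12.83, 12.83 and 12.82 in Dusp6 WT, a rise of 0.37 (limma adjusted p = 0.00037). Of the other Dusp genes in the list, Dusp5 fell by 0.325 (limma adjusted p = 0.0012) and Dusp4 rose by 0.215 (0.038). Dusp9 did not pass (0.92). Thus Dusp7 was higher in the same arrays in which Spry2, Spry4 and Dusp5 were lower. The largest difference in the list was Lrig3, a transmembrane gene of the LRIG family, which fell by 1.15 and lies on chromosome 10, as Dusp6 does. None of the Sprouty and Spred genes is on that chromosome: they lie on chromosomes 3, 14, X and 18 (Spry1 to Spry4) and 2, 11 and 7 (Spred1 to Spred3). Whether chromosomal position plays a part in any of these differences was not tested.

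Components of the RAS-ERK cascade also went both ways. Of 25 measured genes 3 rose and 2 fell (20%, beside 19.8% of all genes), with a median of 0.026. Gab1, a docking protein for receptor signals, fell by 0.49 (limma adjusted p = 7.9e-05). The RAS exchange factor genes Rasgrp1 and Rasgrp3 rose by 0.25 and 0.50, although the Rasgrp3 signals of 6.73, 6.70 and 6.75 in Dusp6 KO and 6.40, 6.06 and 6.23 in Dusp6 WT were below the lower quartile of the arrays. Shc1, an adaptor gene, rose by 0.23.

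Receptor tyrosine kinases, the source of the signals that Sproutys restrain, gave 2 that rose and 4 that fell among 37 (16.2%, beside 19.8% of all genes), with a median of 0.0048. Ret had 9.80, 9.70 and 9.69 in Dusp6 KO and 8.55, 8.64 and 8.61 in Dusp6 WT, a rise of 1.13, and Flt3, the receptor of early lymphoid progenitors, rose by 0.62. Epha2, an ephrin receptor, had 10.73, 10.76 and 10.89 in Dusp6 KO and 11.89, 11.93 and 11.84 in Dusp6 WT, a fall of 1.10. Igf1r, the insulin-like growth factor receptor, fell by 0.72. These 4 genes had limma adjusted p of 2.4e-05 or lower, and their differences were larger than that of any Sprouty or Spred gene.

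Transcripts that commonly respond to ERK went both ways. Of 28 measured, 6 rose and 6 fell (42.9%, beside 19.8% of all genes), with a median of 0.0078. The potassium channel gene Kcnn4 fell by 1.10 and the membrane protein gene Emp1 by 0.99, whereas Btg2, an antiproliferative gene, had 11.41, 11.26 and 11.38 in Dusp6 KO and 10.46, 10.35 and 10.37 in Dusp6 WT, a rise of 0.96. Among the 8 genes that share the EVH1 domain with the Spreds, Vasp (0.18) and Evl (0.16) rose and Homer1 fell by 0.15 (37.5%, beside 19.8% of all genes), with a median of −0.031. These changes were small. Vasp lost its call without Dusp6 WT replicate 3 (adjusted p = 0.069), Evl without any 1 array except Dusp6 KO replicate 3 (0.071 to 0.12), and Homer1 without any 1 array except Dusp6 WT replicate 1 (0.051 to 0.11).

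**Figure D3:**
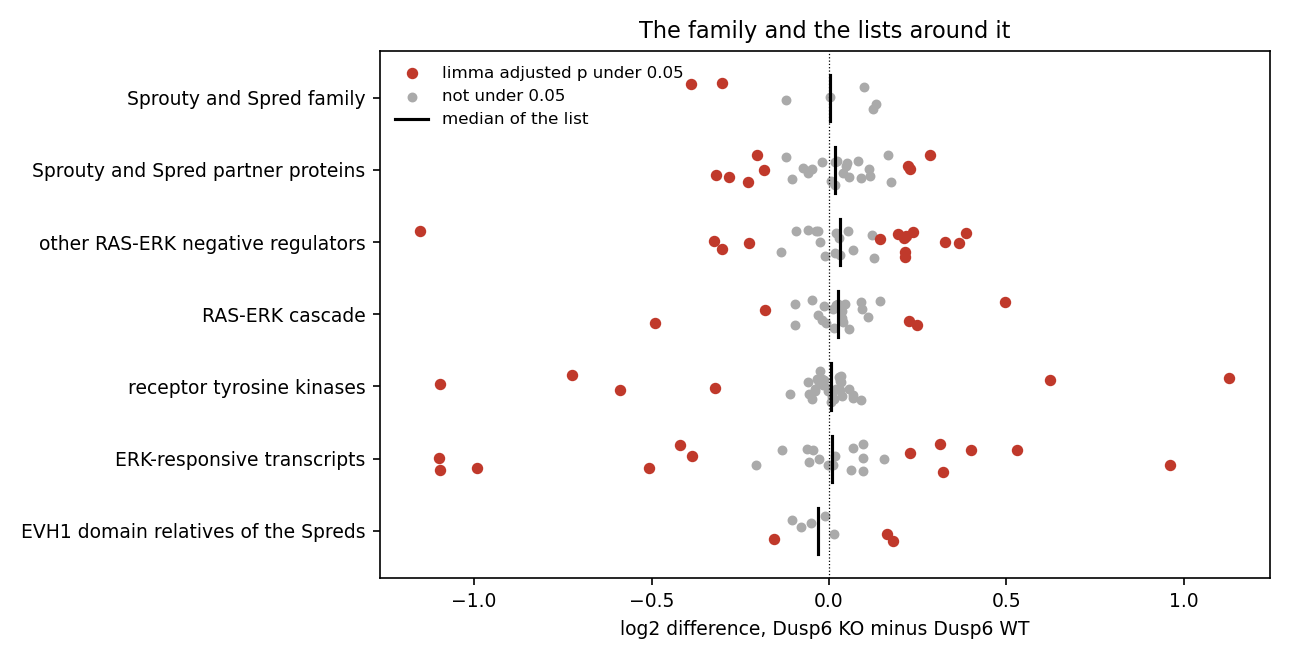
Log2 difference, Dusp6 KO minus Dusp6 WT (x axis), of every measured gene of the Sprouty and Spred family and of the 6 lists around it; red points have a limma adjusted p under 0.05, grey points do not, and black lines are medians. Every list has its median near 0 and red points on both sides, except the family itself, whose 2 red points are lower.

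Along the chromosomes, the family sits beside related genes. Spry2 has Ndfip2 nearby and Spry4 has Ndfip1, a related pair of adaptors for NEDD4-type ubiquitin ligases. Spred1 has Meis2 and Fam98b nearby, Spred2 has Meis1, and Spred3 has Fam98c. Of 25 measured genes within 2 places of a family member, 4 rose and 3 fell (28%, beside 19.8% of all genes).

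Spry4's next measured neighbour, Arhgap26 had 10.47, 10.33 and 10.36 in Dusp6 KO and 10.71, 10.69 and 10.64 in Dusp6 WT. It fell by 0.29 (limma adjusted p = 0.0027), in the direction of Spry4. On the other side, Ndfip1 averaged 11.98 ± 0.042 in Dusp6 KO and 11.89 ± 0.012 in Dusp6 WT (SD, n = 3 each), a difference of 0.10 that did not pass (adjusted p = 0.15). Ndfip2 near Spry2 rose by 0.21 (adjusted p = 0.0073), opposite in sign to Spry2, but not when its probe sets were averaged (difference 0.081; adjusted p = 0.26).

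Etaa1, Meis1 and Rab1a near Spred2 differed more than Spred2 did. Cep68, also near Spred2, differed by 0.12 and did not pass (limma adjusted p = 0.064). Meis1, a homeobox gene of blood stem cells, had 7.32, 7.31 and 7.17 in Dusp6 KO and 7.77, 7.93 and 7.71 in Dusp6 WT, a fall of 0.54 (limma adjusted p = 0.00031). Etaa1, an activator of the ATR kinase, fell by 0.49 (adjusted p = 0.00037). Rab1a, a GTPase gene of vesicle traffic on the other side, rose by 0.22, a call lost without Dusp6 KO replicate 2 or 3 or Dusp6 WT replicate 1 or 2 (adjusted p = 0.068 to 0.087). Meis2 near Spred1 rose by 0.25 and Fam98c near Spred3 by 0.15. The Meis2 signals in Dusp6 WT, 7.13, 6.96 and 7.19, were near the arrays' lower quartile (7.12 to 7.16). Meis2 passed no longer without Dusp6 KO replicate 1 or 2 or Dusp6 WT replicate 1 or 2 (0.058 to 0.089), and Fam98c not without any 1 array (0.054 to 0.11). The measured neighbours of Spry1, namely Nudt6, Spata5, Gm5148 and Ankrd50, did not pass (adjusted p from 0.099 to 0.95), nor did Vamp7 beside Spry3 (0.78).

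**Figure D4:**
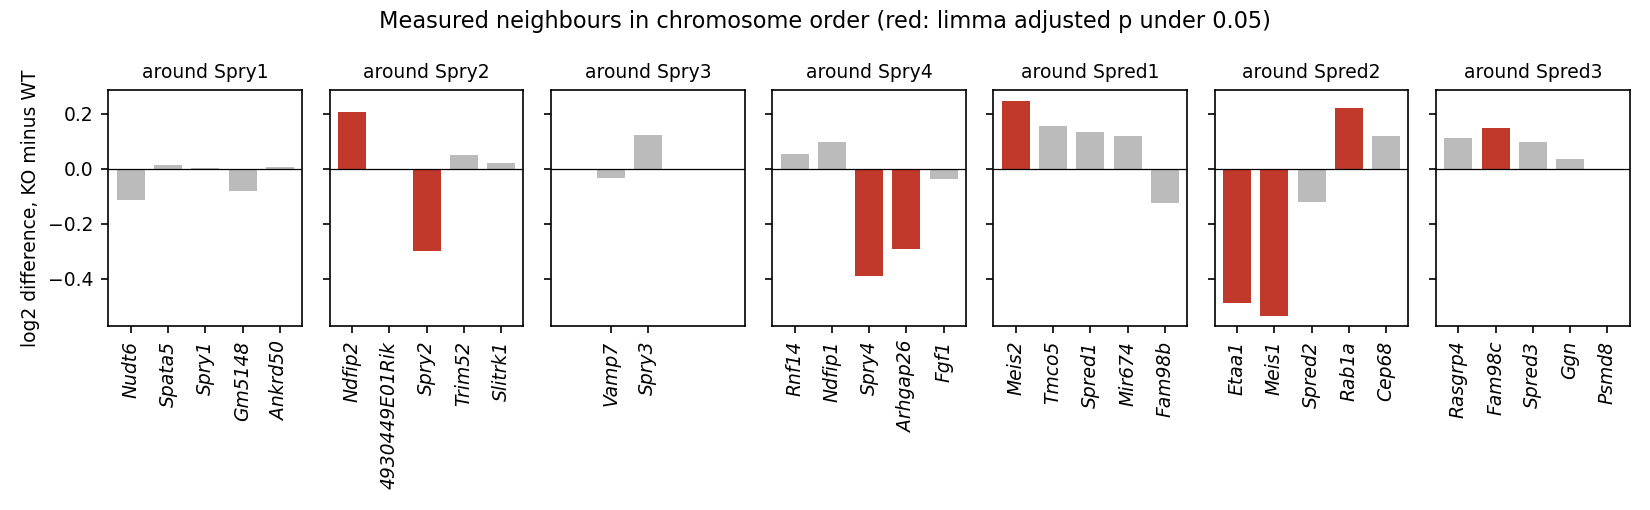
Log2 difference, Dusp6 KO minus Dusp6 WT (y axis), of each Sprouty and Spred gene and of its measured neighbours in chromosome order, up to 2 on each side (x axis); red bars have a limma adjusted p under 0.05. Arhgap26 is lower beside Spry4, Etaa1 and Meis1 are lower beside Spred2, and the genes around Spry1 are near 0.

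Other normalizations, filters, models and sets of arrays left the Sprouty calls as they were and moved those of Spred1 and Spred2. Over 14 other settings, the adjusted p of Spry4 stayed between 1.4e-05 and 0.0018 and that of Spry2 between 0.00017 and 0.0081. Spred1 passed in 2 of the 14 (lowest adjusted p = 0.030) and Spred2 in 3 (lowest adjusted p = 0.021), each without a change in the size of its difference. In those settings a larger share of all genes tested passed too. With probe sets averaged, Spred2 had a difference of −0.094 (limma adjusted p = 0.25). No setting that left out 1 array brought a Spred gene under the threshold.

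**Figure D5:**
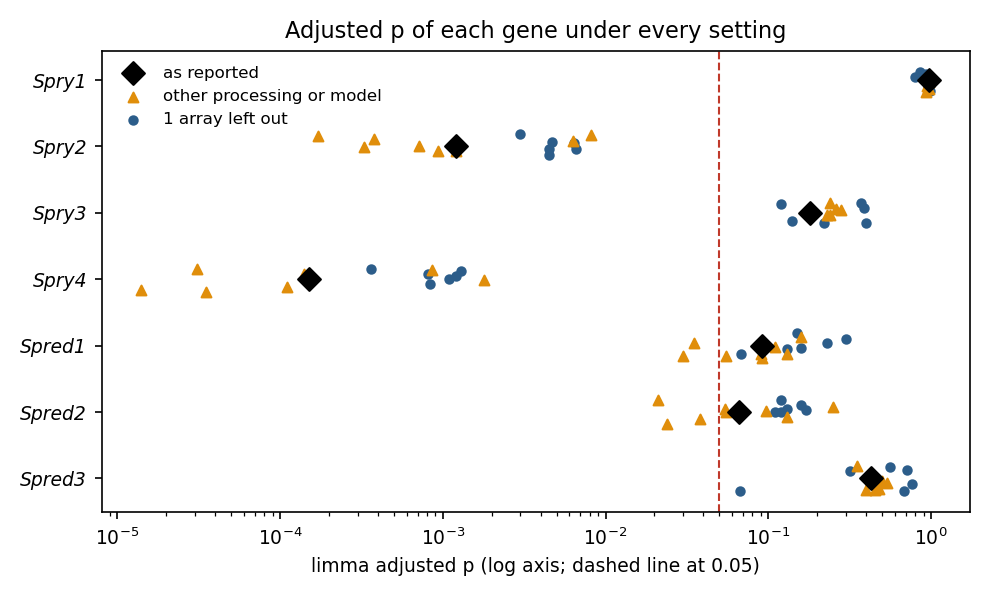
Limma adjusted p (x axis, log scale, dashed line at 0.05) of each gene as reported (black diamond), under other normalizations, filters and models (orange triangles) and with 1 array left out (blue points). Spry2 and Spry4 stay left of the line, Spred1 and Spred2 lie around it, and Spry1, Spry3 and Spred3 stay right of it.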

How the data were processed

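Total RNA of 6 samples was measured on Affymetrix arrays, 3 Dusp6 KO and 3 Dusp6 WT. The deposited values are log2 signals, 1 per probe set and array, made by the authors with RMA and Partek 6.5, per the submitters' processing notes. RMA's settings are not stated in those notes. The values ran from 3.23 to 14.8, which is the range of log2 signals. Precision is limited by the number of arrays, and standard errors of differences had a median of 0.051.

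Of 35556 probe sets, 21789 carried 1 symbol in the platform annotation, and the probe set with the highest mean stood for each of 19938 genes. No probe set listing several genes held a family member. A model with genotype alone was fitted over all genes with limma 3.58.1 (R 4.3.3, lmFit and then eBayes), with Benjamini-Hochberg adjustment and a threshold of 0.05. The code was also run on simulated data with few changed genes, which does not test the calls made here. Differences are Dusp6 KO minus Dusp6 WT. Permutation tests used scipy 1.17.1. Listed genes without a single-symbol probe set were not analysed here. Chromosomes and gene order came from the RefSeq table of GRCm38.p6. Members and lists were chosen with earlier results of these data known. Named were all members, up to 4 genes a list with the largest differences among those that passed, and the 3 genes most like each member that passed. Of the neighbours up to 2 places away, those that passed and some that did not were named. Nf1, Cbl, Grb2, Dusp4, Dusp5, Dusp9, Fcgr3, Lyz2, Pecam1, Cd8b1, Zap70, Car1, Dntt, Cd22 and Cd72 were chosen after their values were seen. Alternatives were other normalizations, filters on dim genes, other handling of probe sets, trend and robust options, a replicate block and leaving out each array.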

Additional observations from a re-analysis of the deposited data

How the results depend on the processing

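The alternatives were listed together with the tests. Over 14 settings Spry2 (−0.33 to −0.28), Spry4 (−0.41 to −0.37) and Dusp6 (−3.40 to −3.33) kept their direction and an adjusted p under 0.05, and Spry3 and Spred3 kept theirs without passing, in 12 and 13 settings that still measured them (Spry3 dropped out under both filters on dim genes and Spred3 under the stricter). Spred1 passed with genes under the median signal removed (0.133, adjusted p = 0.035) and with trend and robust options (0.133, adjusted p = 0.030), which made 1 gene of the family higher in those settings. Spred2 passed with genes under the median (−0.12, adjusted p = 0.021) or under the 25th percentile of signal removed (−0.12, adjusted p = 0.038) and with trend and robust options (−0.12, adjusted p = 0.024). With the probe sets of each gene averaged, Spred2 was at −0.0941 (adjusted p = 0.25). The filters test fewer genes, and for the trend and robust options the cause was not tested. Over all genes, 1769 rose and 2206 fell of 9969 with the median filter, and 2055 and 2268 of 14953 with the 25th percentile filter. Trend and robust options gave 2189 and 2411 of 19938, against 1926 and 2028 as reported. Spry1 changed sign around 0 when arrays were centred on their medians (−0.0077), and without 1 array it ranged from −0.011 to 0.025, being below 0 without Dusp6 KO replicate 1 (−0.0045), Dusp6 KO replicate 2 (−0.0024), Dusp6 WT replicate 1 (−0.0024) or Dusp6 WT replicate 3 (−0.011). Without 1 array the genes of the family that passed stayed at 0 higher and 2 lower, Spred1 ranged from 0.0925 to 0.167, Spred2 from −0.133 to −0.113, Spry3 from 0.0741 to 0.162 and Spred3 from 0.0523 to 0.185. Among 155 distinct genes of the 6 other lists, 26 rose and 21 fell, with 21 to 29 and 16 to 24 over the settings. Replicate numbers are shared by the genotypes, and the labels do not say whether they pair the samples. Deviations from the genotype means of same-numbered arrays correlated at 0.0098, −0.12 and 0.053. Those of differently numbered arrays correlated at −0.15 to 0.13. With 3 arrays a genotype, such values cannot settle whether the samples are paired. With every probe set tested Evl, Fam98c, Homer1, Lztr1, Meis2 and Rab1a lost their calls (adjusted p = 0.056 to 0.096), as Homer1 and Meis2 did with quantile normalization repeated (0.052 each). Calls were also gained. With the median filter Arid1b (0.037), Cep68 (0.020), Fam98b (0.029) and Nudt6 (0.037) passed. Arid1b (0.023), Cep68 (0.016) and Fam98b (0.034) did with trend and robust options, and Cep68 (0.037) and Fam98b (0.049) with the 25th percentile filter. With the replicate block Spry4 had an adjusted p of 0.00086, Spry2 of 0.0063, Spred1 of 0.11 and Spred2 of 0.13, so no call of the family changed, while Kdm2b (0.059), H1f5 (0.051), Homer1 (0.061) and Fam98c (0.075) lost theirs, and over all genes 1681 rose and 1764 fell, against 1926 and 2028.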
